A study of Mus musculus with 12 samples.

Results

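Hearts of unstressed *Fabp3*-null mice were compared with wild-type hearts across all genes. The comparison used the 3 sham-operated F3-KO hearts and the 3 sham-operated WT hearts, 6 of the 12 hearts sequenced in the study, and covered 14094 of the 19308 genes in the count table, those that passed a filter on low counts. The other 6 hearts, 3 of each genotype, came from mice whose aortic arch had been narrowed by ligation (TAC). Their values are given only where stated, but all 12 hearts entered the low-count filter, the scaling and the estimate of spread behind each test. All mice were C57BL/6, aged 8 weeks at surgery, and hearts were taken 1 week after it. The F3-KO mice carried a global knockout made with CRISPR-Cas9, not limited to 1 cell type. The study's methods name purchased C57BL/6 males and its results name WT littermates, and neither says which of them gave the sequenced WT hearts. The origin of the mice and the genotype can therefore not be told apart here, for any gene described below, and the C57BL/6 substrain was not given in the sources used here.

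FABP3 is the heart-type fatty acid binding protein, a small cytosolic carrier that takes long-chain fatty acids from the plasma membrane to mitochondria and to lipid stores. The adult heart draws most of its energy from fatty acid oxidation, and the protein is among the most abundant in the cytosol of cardiomyocytes. Sham surgery opens and closes the chest without loading the ventricle, so that the sham groups compare the genotypes without pressure overload.

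Total estimated counts were 10424334 to 12633776 in the WT sham hearts and 11459892 to 12231937 in the F3-KO sham hearts. A count of 3, used as the floor for a fold, was worth 0.237 to 0.288 CPM (counts scaled to a common library total), a limit that covers counting error only. CPM of single genes also carry TMM factors, which correct for libraries of unlike make-up. The tissue label held: the 8 cardiomyocyte markers together reached 65591 to 93894 CPM in every sham heart. WT sham replicate 2 stood apart within its group. Its summed cardiomyocyte markers reached 65591 CPM against 82872 and 84498 CPM in the other WT hearts, its fibroblast markers 3251 CPM against 1607 and 1757 CPM, and its macrophage markers 884 CPM against 399 and 416 CPM. The spread between hearts beyond counting error, given as the biological coefficient of variation, was 0.207 in the WT sham group and 0.138 in the F3-KO sham group. It was 0.259 in the WT TAC group, 0.294 in the F3-KO TAC group and 0.232 over all 4 groups. In whole hearts, fewer cells of a type and less RNA per cell cannot be told apart.

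Few genes differed between the unstressed groups. At a Benjamini-Hochberg adjusted p under 0.05 in edgeR's quasi-likelihood test, 15 of the 14094 genes were differentially expressed (0.106%). Among them, 5 were upregulated (0.0355%) and 10 were downregulated (0.071%) in F3-KO hearts. Each of the 15 differed by a log2 fold change of at least 1 in absolute value, and in each the 3 F3-KO hearts lay entirely above or below the 3 WT hearts, as they did in 13.7% of all tested genes. The distribution was centred near 0. The median log2 fold change over all tested genes was -0.00413, and the central 50% of genes (quartiles) lay between -0.15 and 0.14. Among the 9267 genes with a mean of at least 10 CPM, 88 (0.95%) had a log2 fold change of at least 1 in either direction. DESeq2's Wald test called 102 of 15462 genes (0.66%), 56 higher and 46 lower, and these included all 15.

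The number of calls fell whichever sham heart was left out. A fit without 1 heart also has fewer replicates, so that this loss and the weight of that heart cannot be told apart. Leaving out WT sham replicate 1, 2 or 3 left 7, 6 and 5 genes, of which 6, 6 and 5 were among the 15. Leaving out F3-KO sham replicate 1, 2 or 3 left 6, 5 and 2 genes, of which 4, 5 and 2 were among the 15. *Rab4a* and *Plac9b* remained called in all 6 of these fits. *Ttc41* and *Tmem181b-ps* lost their call only without F3-KO sham replicate 3 (adjusted p = 0.0576 for both, edgeR). *Wdfy1* lost it without WT sham replicate 3 or any F3-KO heart (adjusted p up to 0.0752) and *Fabp3* without any F3-KO heart (adjusted p up to 0.1). *Dynlt1b* kept its call only without F3-KO sham replicate 2, and the other 8 genes lost theirs whichever heart was left out, with adjusted p values of up to 0.324. All 15 kept their direction in these fits. Without WT sham replicate 2, the heart that stood apart, the 6 remaining genes were *Fabp3*, *Rab4a*, *Plac9b*, *Tmem181b-ps*, *Ttc41* and *Wdfy1*. With scaling by library totals alone, 9 genes were called, 1 higher and 8 lower, against 5 and 10 with TMM factors.

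**Figure D1:**
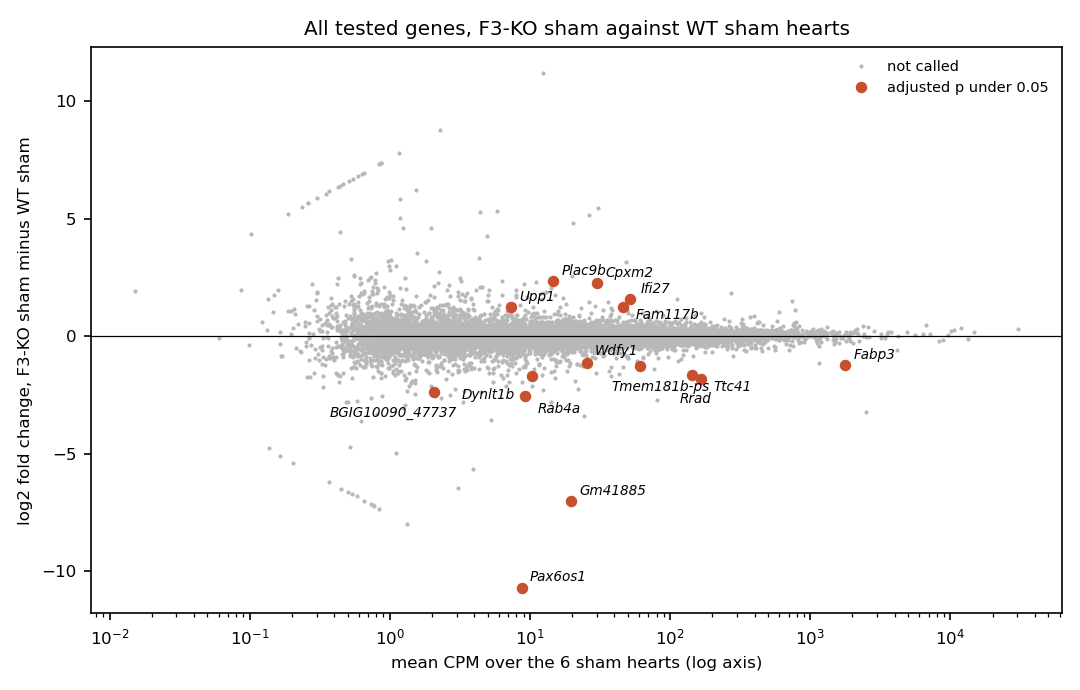
Log2 fold change between F3-KO sham and WT sham hearts against the mean CPM over the 6 sham hearts (log axis) for the 14094 tested genes. Each grey point is a gene that was not called and the 15 labelled points are the differentially expressed genes, which reach from *Fabp3* at the right to BGIG10090_47737 at the left, near 2 CPM. The value drawn for *Pax6os1* depends on the prior count, since all 3 F3-KO hearts held 0 counts.

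The targeted gene was still counted in every F3-KO heart. *Fabp3* (NCBI gene 14077) was at 2849, 2432 and 2117 CPM in the WT sham hearts and at 1089, 1040.1 and 1066 CPM in the F3-KO sham hearts. The F3-KO hearts lay close together at 43.2% of the WT mean, and the groups did not overlap. The difference was -1.21 ± 0.15 (SE) on the log2 scale (adjusted p = 0.00784, edgeR). These values are of RNA and not of protein. The study reports, from western blots, that its knockout completely removed the encoded protein from the heart. Counts per gene do not show which exons the remaining reads came from, and the edited bases are not given in the sources used here. Of 10 fatty acid binding protein genes listed, 9 were in the table and 3 passed the filter. *Fabp4*, the adipocyte and endothelial form, was at 704, 699.6 and 464 CPM in WT and 1023, 713 and 1019 CPM in F3-KO hearts. *Fabp5*, the epidermal form, was at 28.5, 23 and 18.9 CPM in WT and 38.3, 27.2 and 32.1 CPM in F3-KO hearts. Their log2 fold changes were 0.56 and 0.47 and neither was called (adjusted p = 0.998 for both, edgeR). The 10 tested genes nearest to *Fabp3* in chromosomal order had log2 fold changes between -0.59 and 0.69, and 0 of the 10 passed even an unadjusted 0.05.

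Among the downregulated genes, 2 encode proteins of endosomes. *Rab4a* (NCBI gene 19341), a small GTPase that sends endocytosed receptors and the glucose transporter GLUT4 back to the cell surface, was at 15.1, 16.5 and 15.5 CPM in WT and 2.66, 3.03 and 2.38 CPM in F3-KO hearts. The F3-KO mean was 17.2% of the WT mean, with a difference of -2.54 ± 0.21 (SE) on the log2 scale (adjusted p = 0.000599, edgeR), the smallest adjusted p of all genes. *Wdfy1* (NCBI gene 69368), whose protein binds phosphoinositide lipids on early endosomes, was at 35.5, 33.2 and 36.2 CPM in WT and 15.4, 15.6 and 16.2 CPM in F3-KO hearts. Both groups were tight and far apart, with a difference of -1.15 ± 0.14 (SE) on the log2 scale (adjusted p = 0.00784).

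*Rrad* (NCBI gene 56437) encodes a Ras-like GTPase that restrains the L-type calcium channel of cardiomyocytes. It was at 192, 189 and 269 CPM in WT and 81.9, 75.1 and 48.1 CPM in F3-KO hearts. It fell to 31.5% of the WT mean, a difference of -1.66 ± 0.27 (SE) on the log2 scale (adjusted p = 0.0493, edgeR). *Ttc41* (NCBI gene 103220), which encodes a tetratricopeptide repeat protein, was at 321, 252 and 203 CPM in WT and 56.2, 85.1 and 79.6 CPM in F3-KO hearts. The groups were far apart, the F3-KO mean at 28.5% of the WT mean, a difference of -1.81 ± 0.21 (SE) on the log2 scale (adjusted p = 0.00617).

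A pair of neighbouring genes fell together. *Dynlt1b* (NCBI gene 21648), a light chain of the motor protein dynein, was at 18.9, 14.2 and 14.6 CPM in WT and 3.58, 6.83 and 4.22 CPM in F3-KO hearts, a difference of -1.70 ± 0.26 (SE) on the log2 scale (adjusted p = 0.0438, edgeR). Beside it lies *Tmem181b-ps* (NCBI gene 547127), a pseudogene of a transmembrane protein. It was at 83.4, 88.6 and 87.1 CPM in WT and 40.3, 33.1 and 35.0 CPM in F3-KO hearts, a difference of -1.26 ± 0.14 (SE) on the log2 scale (adjusted p = 0.00451). The related copies nearby, named here after their values were seen, were not called, with log2 fold changes of -0.55 for *Dynlt1a*, -0.22 for *Dynlt1c* and 0.13 for *Tmem181a*, each with an adjusted p of 0.998. Reads of such near-identical copies could have been split between them in the authors' counting, so that the values of single copies are uncertain.

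The remaining 3 downregulated genes are little known transcripts. *Pax6os1* (NCBI gene 402728), a transcript from the strand opposite to *Pax6*, was at 13.2, 28.7 and 10.3 CPM in WT hearts and at 0 counts in all 3 F3-KO hearts. Whether counting used strand was not given in the sources used here, so reads of *Pax6* cannot be told apart from it. Against the floor of 3 counts per library it was at least 69.0-fold lower (adjusted p = 0.0438, edgeR), and at least 45-fold lower without WT sham replicate 2, which held its highest value. Counts of 0 also occurred in single hearts for genes counted well elsewhere: 5 genes were at 0 in 1 sham heart and had at least 50 counts in each of the other 5, among them the ribosomal protein gene *Rps7*, at 0 in WT sham replicate 1. *Gm41885* (NCBI gene 105246618), a predicted gene, was at 29.4, 24.7 and 62.0 CPM in WT and 0.249, 0.605 and 0 CPM in F3-KO hearts (log2 fold change -7.02 ± 1.12 SE, adjusted p = 0.0493). The gene listed as BGIG10090_47737, which has no NCBI identifier, was at 3.98, 3.02 and 3.35 CPM in WT and 0.748, 0.432 and 0.825 CPM in F3-KO hearts (log2 fold change -2.35 ± 0.33 SE, adjusted p = 0.0263).

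The largest rise among the 5 upregulated genes was that of *Plac9b* (NCBI gene 100039246), one of several mouse copies of a gene for a small secreted protein first described in placenta. It was at 4.95, 5.87 and 3.60 CPM in WT and 26.3, 22.7 and 24.2 CPM in F3-KO hearts. The F3-KO mean was 5.07 times the WT mean, a difference of 2.34 ± 0.24 (SE) on the log2 scale (adjusted p = 0.00277, edgeR). The copies share sequence, shown here in RefSeq's 250 bases before the start of *Plac9a* (chr14:25902894-25903143) and of *Plac9b* (chr14:26182352-26182601), both on the minus strand of GRCm38.p6. The capitals mark the longest run that both windows hold, 172 bases without a difference. The sequences show how alike the copies are before their starts, and transcript sequences were not compared.
Plac9a: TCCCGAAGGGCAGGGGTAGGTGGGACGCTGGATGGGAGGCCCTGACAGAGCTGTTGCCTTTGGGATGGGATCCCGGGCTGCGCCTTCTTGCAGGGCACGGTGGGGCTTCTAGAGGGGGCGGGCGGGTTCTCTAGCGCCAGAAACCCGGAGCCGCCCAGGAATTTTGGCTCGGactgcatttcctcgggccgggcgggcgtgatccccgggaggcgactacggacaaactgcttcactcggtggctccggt
Plac9b: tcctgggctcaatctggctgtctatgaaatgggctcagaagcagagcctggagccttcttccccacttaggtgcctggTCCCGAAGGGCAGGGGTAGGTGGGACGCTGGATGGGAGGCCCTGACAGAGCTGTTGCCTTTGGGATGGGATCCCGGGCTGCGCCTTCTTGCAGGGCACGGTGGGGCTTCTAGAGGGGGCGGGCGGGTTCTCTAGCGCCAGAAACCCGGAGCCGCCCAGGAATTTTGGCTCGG

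Of the other 4 upregulated genes, 3 have known roles in the interferon response, in nucleoside use and outside the cell. *Ifi27* (NCBI gene 52668), an interferon-induced gene for a mitochondrial protein, was at 16.6, 32.4 and 29.5 CPM in WT and 78.6, 88.5 and 66.3 CPM in F3-KO hearts. The lowest F3-KO heart lay above the highest WT heart, and the difference was 1.57 ± 0.24 (SE) on the log2 scale (adjusted p = 0.0438, edgeR). *Upp1* (NCBI gene 22271), the enzyme that splits uridine into uracil and ribose phosphate, was at 4.95, 3.85 and 4.25 CPM in WT and 9.81, 9.34 and 11.7 CPM in F3-KO hearts, a difference of 1.24 ± 0.20 (SE) on the log2 scale (adjusted p = 0.0493).

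*Cpxm2* (NCBI gene 55987), a secreted member of the carboxypeptidase family, was at 14.3, 8.62 and 8.10 CPM in WT and 34.5, 68.0 and 46.3 CPM in F3-KO hearts. It rose 4.80-fold, with a difference of 2.27 ± 0.37 (SE) on the log2 scale (adjusted p = 0.0493, edgeR). *Fam117b* (NCBI gene 72750) was at 22.7, 29.7 and 29.0 CPM in WT and 67.2, 56.3 and 72.3 CPM in F3-KO hearts, a difference of 1.27 ± 0.21 (SE) on the log2 scale (adjusted p = 0.0493).

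**Figure D2:**
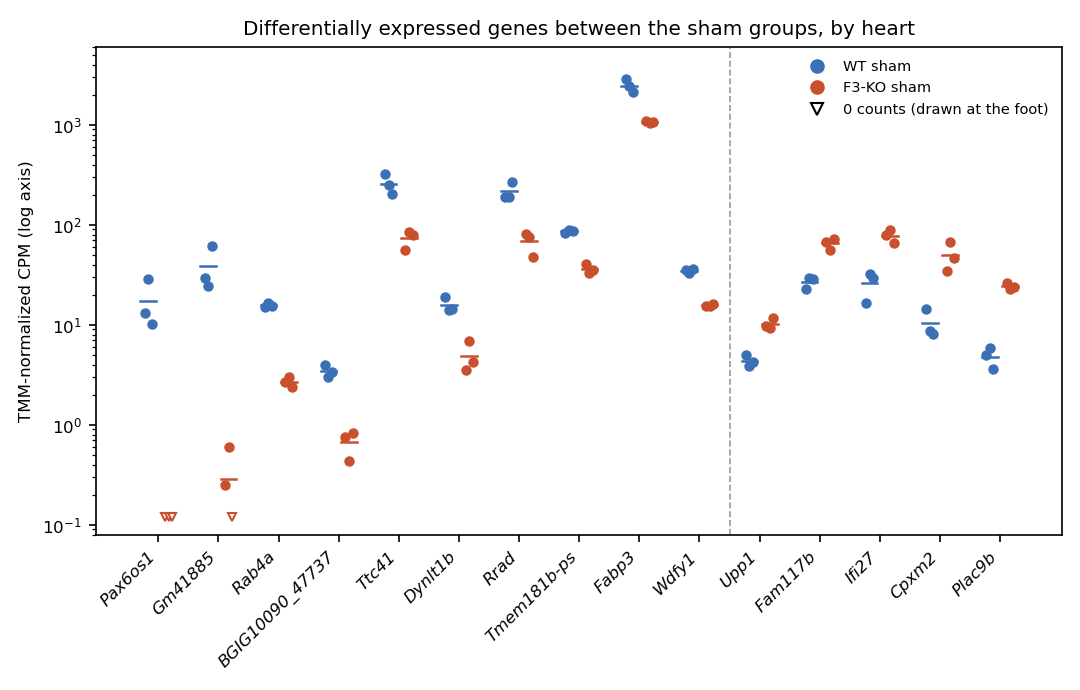
TMM-normalized CPM (log axis) of the 15 differentially expressed genes in each sham heart, with WT hearts in blue and F3-KO hearts in orange, the group mean as a short line and counts of 0 as open triangles at the foot. Genes left of the dashed line were lower in F3-KO hearts and genes right of it were higher, and in every gene the points of the groups are separate.

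Several copies next to *Plac9b* stood at higher values in F3-KO hearts too, without passing the threshold. *Plac9a* was at 1.36, 2.93 and 1.96 CPM in WT and 12.2, 12.4 and 7.24 CPM in F3-KO hearts (log2 fold change 2.34, adjusted p = 0.0812, edgeR). *Tmem254b*, at a log2 fold change of 1.76, and *Gm9780*, at 2.20, had adjusted p values of 0.131 and 0.177. Within the same stretch the predicted genes *Gm2260* (-2.12) and *Gm2274* (-0.30) had lower values in F3-KO hearts. The genes outside the stretch were near 0, with *Anxa11* at -0.16 and *Slmap* at -0.20. Apart from *Plac9b*, these genes were named after their values were seen.

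A second stretch of this kind held copies of *Entpd4*, a gene for a nucleotide-splitting enzyme of the Golgi. *Gm21451* was at 1.65, 2.29 and 1.06 CPM in WT and 10.7, 5.45 and 5.13 CPM in F3-KO hearts (log2 fold change 2.09, adjusted p = 0.0656, edgeR). *Gm16867* (3.56, adjusted p = 0.0866) and *Entpd4b* (3.17, adjusted p = 0.273) lie on both sides of it, while *Entpd4* itself had a log2 fold change of 0.43. *Entpd4b* was at 20.7, 4.95 and 3.85 CPM in WT and 59.0, 128 and 74.9 CPM in F3-KO hearts. None of these passed the threshold, and reads of these copies may have been shared between them.

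**Figure D3:**
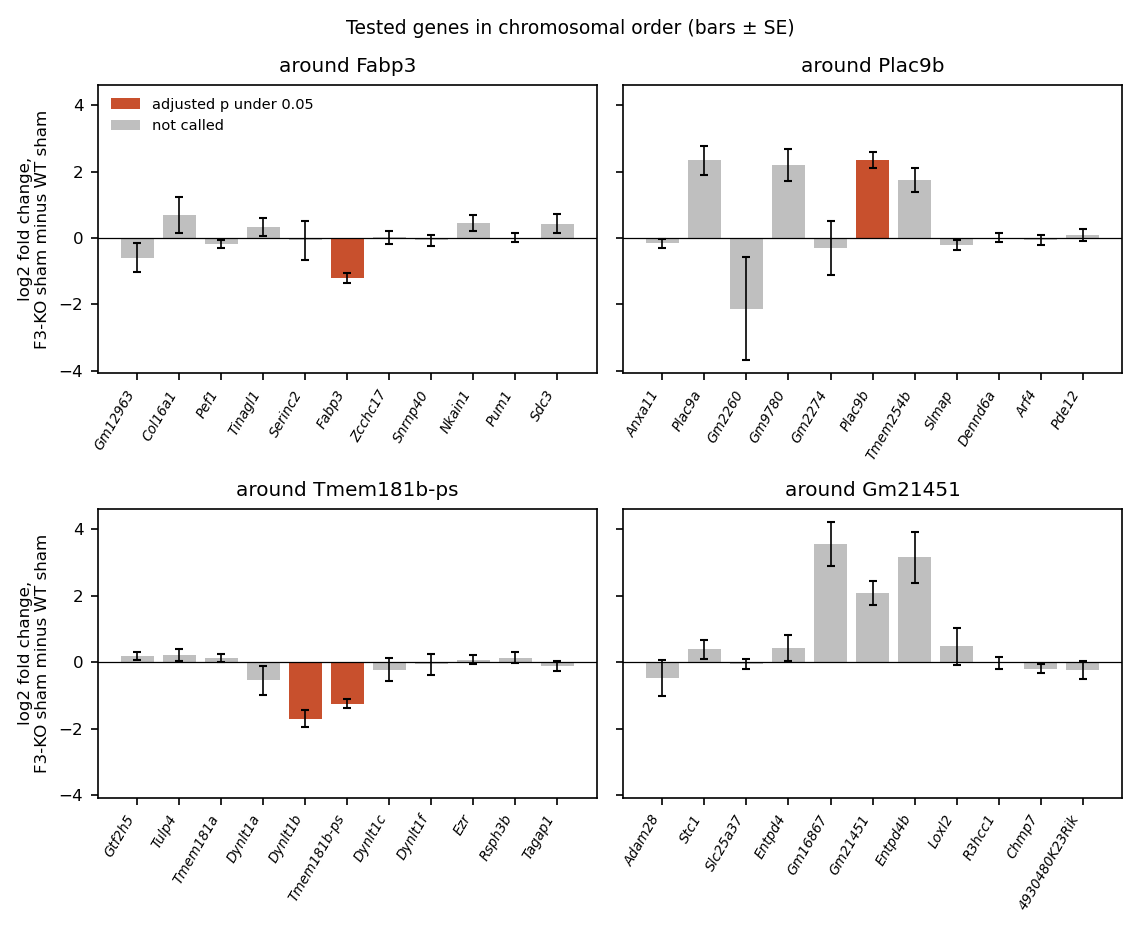
Log2 fold change (bars, ± SE) between F3-KO sham and WT sham hearts for tested genes in chromosomal order around 4 genes, with differentially expressed genes in orange. *Fabp3* is the only called gene of its panel, 4 genes stand above 1.5 around *Plac9b*, *Dynlt1b* and *Tmem181b-ps* are low side by side, and 3 genes stand above 2 around *Gm21451*.

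Over the 13 differentially expressed genes with a place in the RefSeq gene order, the 5 tested genes on each side gave 120 distinct genes that were not called. Of these, 16 (13.3%) had an unadjusted p of at most 0.05, against 849 of all 14094 tested genes (6.02%), of which 396 (2.81%) were higher and 453 (3.21%) lower in F3-KO hearts. Genes that lie side by side, and copies of 1 gene above all, are not independent of each other.

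The 10 genes that came next by p value lay just above the threshold, at adjusted p values of 0.0505 to 0.0812. *Maob*, the mitochondrial enzyme monoamine oxidase B, was at 80.8, 81.8 and 76.9 CPM in WT and 36.5, 33.8 and 39.3 CPM in F3-KO hearts (log2 fold change -1.13, adjusted p = 0.0505, edgeR). *Bcl2*, which restrains cell death, was at 9.03, 9.90 and 9.08 CPM in WT and 16.6, 17.6 and 15.4 CPM in F3-KO hearts (log2 fold change 0.82, adjusted p = 0.0537). In both genes the groups were tight and separate. The chemokine gene *Cxcl14* (-1.90, adjusted p = 0.0805) and the predicted gene *Gm40525* (-2.72, 0.0599) had lower values in F3-KO hearts. *Lrmda* (3.0, 0.0542), *D7Ertd443e* (1.99, 0.0599), *Arhgap9* (1.67, 0.0599) and *Nt5dc2* (1.00, 0.0812) had higher values, as did *Gm21451*.

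Another of the 10, *Apol9a*, belongs to an interferon-induced family of apolipoprotein L genes. It was at 0.291, 0.550 and 0.573 CPM (3, 6 and 7 counts) in WT and 4.82, 14.6 and 8.80 CPM in F3-KO hearts (log2 fold change 4.27 ± 0.75 SE, adjusted p = 0.0656, edgeR). Its near copy *Apol9b*, named after its values were seen, was at 0.971, 1.56 and 0.573 CPM in WT and 3.24, 7.53 and 5.31 CPM in F3-KO hearts (2.37, adjusted p = 0.317). All F3-KO hearts lay above all WT hearts for both. Their starts are printed because they hold a motif of the kind bound by interferon-activated factors, and because they show how alike the copies are before their starts. Reads of the copies could be hard to tell apart, but transcript sequences were not compared. The windows are the 250 bases before the start, at chr15:77411081-77411330 on the minus strand for *Apol9a* and chr15:77728822-77729071 on the plus strand for *Apol9b* (RefSeq, GRCm38.p6). The capitals mark the longest shared run, 228 bases.
Apol9a: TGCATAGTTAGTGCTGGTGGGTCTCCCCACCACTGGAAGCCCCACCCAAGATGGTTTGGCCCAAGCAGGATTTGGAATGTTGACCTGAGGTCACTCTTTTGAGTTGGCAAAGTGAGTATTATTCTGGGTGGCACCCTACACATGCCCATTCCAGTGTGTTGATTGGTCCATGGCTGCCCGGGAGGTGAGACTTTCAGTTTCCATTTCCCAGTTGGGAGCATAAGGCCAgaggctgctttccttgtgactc
Apol9b: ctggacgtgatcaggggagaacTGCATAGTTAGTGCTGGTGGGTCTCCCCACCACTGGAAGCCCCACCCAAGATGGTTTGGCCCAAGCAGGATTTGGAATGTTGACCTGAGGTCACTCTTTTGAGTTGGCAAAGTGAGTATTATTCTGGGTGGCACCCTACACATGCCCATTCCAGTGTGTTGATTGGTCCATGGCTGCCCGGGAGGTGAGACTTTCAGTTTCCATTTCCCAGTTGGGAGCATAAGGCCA

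The motif searched was GAAA, any 2 bases and GAAA again, on both strands and with overlaps counted, in windows of 250 bases before to 50 bases after the start, for all genes with a RefSeq promoter entry. In both windows the motif lay on the opposite strand, so that the printed letters read TTTCAGTTTC and, overlapping that match, TTTCCATTTC. Of 27025 genes, 1079 (3.99%) held the motif. It was found in 11 of the 19 tested interferon response genes with an entry and in 8 of the 10 tested Ifi200 genes with an entry. Of the 15 differentially expressed genes 7 had an entry and 0 of these held the motif. A match is a description of the letters and not a bound site.

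The interferon response list, which does not hold the upregulated *Ifi27*, leaned to higher values without a call. It had 27 tested genes, of which 20 had a higher F3-KO mean, as did 49.2% of all tested genes. Its median log2 fold change was 0.19, 0 genes were called, and in 5 genes all F3-KO hearts lay above all WT hearts, against 6.78% of all genes. The median was 0.12 without WT sham replicate 1 and 0.28 without F3-KO sham replicate 3. *Usp18*, which turns off interferon signalling, had the smallest p of the list. It was at 4.37, 5.22 and 6.95 CPM in WT and 16.2, 24.7 and 20.5 CPM in F3-KO hearts (log2 fold change 1.89 ± 0.49 SE, adjusted p = 0.312, edgeR). *Oasl2*, with the highest CPM of the list, overlapped between groups, at 90.7, 226 and 54.5 CPM in WT and 98.0, 111 and 74.8 CPM in F3-KO hearts. The Ifi200 genes, a cluster of DNA-sensing proteins, had 10 of 11 tested members with a higher F3-KO mean and a median of 0.21. With 1 heart left out that median ranged from 0.077 (without WT sham replicate 3) to 0.59 (without WT sham replicate 2). *Ifi208* was at 0.486, 0.733 and 1.06 CPM in WT and 3.74, 3.46 and 2.93 CPM in F3-KO hearts (2.12 ± 0.42 SE, adjusted p = 0.113), whereas *Mndal*, the member with the highest CPM, was at 0.13. In the antigen presentation list 11 of 19 genes had a higher F3-KO mean, with a median of 0.01. *H2-Ab1*, a class II chain, was at 30.7, 44.8 and 50.7 CPM in WT and 67.5, 97.8 and 88.0 CPM in F3-KO hearts (1.00, adjusted p = 0.624). *B2m*, with the highest CPM of this list, was at 0.26.

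The extracellular matrix lists had positive medians. Among collagens and other matrix genes 23 of 24 had a higher F3-KO mean, the median log2 fold change was 0.48, and 0 genes were called or reached an unadjusted p of 0.05. In 9 of the 24 all F3-KO hearts lay above all WT hearts, as in 6.78% of all genes. *Lum*, a collagen-binding proteoglycan, was at 44.1, 60.4 and 35.7 CPM in WT and 69.2, 89.8 and 68.4 CPM in F3-KO hearts (0.70 ± 0.38 SE, adjusted p = 0.957, edgeR). *Dcn* was the exception in direction, at 507, 1154 and 407 CPM in WT and 471, 793 and 595 CPM in F3-KO hearts (-0.15, adjusted p = 0.998). Its highest value was that of WT sham replicate 2, and its log2 fold change was 0.44 without that heart. The matricellular proteins and proteases had a median of 0.48, with 17 of 24 genes at a higher F3-KO mean. *Adamts1*, a secreted protease, was at 45, 36.9 and 47.0 CPM in WT and 78.7, 67.5 and 59.7 CPM in F3-KO hearts (0.67 ± 0.17 SE, adjusted p = 0.288), and *Timp3*, with the highest CPM of the list, was at 0.47 (adjusted p = 0.827). With 1 heart left out the medians of these lists ranged from 0.32 and 0.34 (without F3-KO sham replicate 1) to 0.65 and 0.64 (without F3-KO sham replicate 3), and without WT sham replicate 2 they were 0.58 and 0.59. Fibroblast markers leaned the same way, but *Col1a1*, *Col1a2*, *Dcn* and *Lum* are members of the collagen and matrix list as well. The lean of the fibroblast markers therefore rests in part on the same values. Of the 10 fibroblast markers 8 had a higher F3-KO mean and 4 did not overlap, with a median of 0.39, which was 0.59 without WT sham replicate 2 and 0.20 without WT sham replicate 3. Their sum was 1607 to 3251 CPM in WT and 2150 to 2749 CPM in F3-KO hearts. It overlapped only through WT sham replicate 2, the other WT hearts being at 1607 and 1757 CPM. The part of fibroblast markers in the matrix values was not tested.

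Contractile genes had a list median near 0. Of 22 sarcomere and Z-disc genes 13 had a higher F3-KO mean, with a median of 0.05 and 0 calls. *Tnnc1*, cardiac troponin C, was at 2297, 1858 and 1925 CPM in WT and 2974, 2499.7 and 2685 CPM in F3-KO hearts (0.42 ± 0.16 SE, adjusted p = 0.714, edgeR). *Myh6*, the adult heavy chain of myosin, was at 31157, 16252 and 34081 CPM in WT and 34460.0, 31855 and 33849 CPM in F3-KO hearts, with the low value again in WT sham replicate 2. *Myh7*, the fetal heavy chain that returns in stressed mouse hearts, varied widely within the WT group, at 347, 9179 and 4019.8 CPM, and was at 648, 520.2 and 289.7 CPM in F3-KO hearts (-3.22 ± 1.44 SE, adjusted p = 0.821). The groups overlapped, and no direction can be read from it. Hypertrophy markers as a list (11 tested) had a median of -0.02 with 5 genes at a higher F3-KO mean, and 0.26 without WT sham replicate 2. *Nppb*, the natriuretic peptide BNP, was at 128, 95 and 155 CPM in WT and 311, 181 and 172 CPM in F3-KO hearts (0.81 ± 0.28 SE, adjusted p = 0.59).

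Calcium handling genes (18 tested) had a median of -0.02 with 9 at a higher F3-KO mean and 0 calls. *Atp2a2*, the calcium pump SERCA2, was at 14628, 9717 and 17431 CPM in WT and 11297, 13029 and 13881 CPM in F3-KO hearts (-0.13, adjusted p = 0.998, edgeR). *Slc8a1*, the sodium-calcium exchanger, was at -0.50 (adjusted p = 0.821). Ion channels and gap junctions had a median of -0.21, with 14 of 22 genes at a lower F3-KO mean. That median was -0.30 without WT sham replicate 2 and -0.089 without WT sham replicate 3. *Kcnj2*, the inward rectifier that sets the resting potential, was at 66.0, 65.0 and 103 CPM in WT and 39.7, 35.1 and 36.9 CPM in F3-KO hearts (-1.07 ± 0.20 SE, adjusted p = 0.0866). *Abcc9*, with the highest CPM of the list, was at 0.21. In the opposite direction stood *Kcne1*, a potassium channel subunit, at 4.76, 3.02 and 3.52 CPM in WT and 22.1, 13.9 and 19.4 CPM in F3-KO hearts (2.3, adjusted p = 0.228). *Kcne1* was named after its values were seen.

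Energy metabolism lists outside the lipid pathways had small medians, most of them positive. Nuclear genes of the respiratory chain had a higher F3-KO mean in 27 of 30 cases, with a median of 0.16, a highest value of 0.38 and 0 calls, and the median was 0.094 without F3-KO sham replicate 3. *Ndufb8*, a complex I subunit, was at 556, 518 and 493 CPM in WT and 695, 557 and 702 CPM in F3-KO hearts (0.32 ± 0.18 SE, adjusted p = 0.971, edgeR), and *Atp5b*, with the highest CPM of the list, was at 0.10. Pyruvate entry and TCA cycle genes had a higher F3-KO mean in 24 of 26 cases with a median of 0.10, which was -0.02 without WT sham replicate 2. *Pdhb*, a subunit of pyruvate dehydrogenase, was at 0.47 (adjusted p = 0.761). The 13 genes encoded by mitochondrial DNA were not found in the count table under the names searched. They could therefore not be analysed.

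Glycolysis and glycogen genes had a median of 0.09 with 15 of 24 at a higher F3-KO mean, and -0.02 without WT sham replicate 2. *Phka1*, a regulatory subunit of the kinase that starts glycogen breakdown in muscle, was at 58.5, 97.9 and 93.4 CPM in WT and 43.1, 45.4 and 48.9 CPM in F3-KO hearts (-0.86 ± 0.16 SE, adjusted p = 0.0881, edgeR). *Aldoa*, with the highest CPM of the list, was at -0.06. In the list for glucose uptake and insulin signalling, 1 of 20 tested genes was called, *Rab4a*, against 0.106% of all tested genes, and the median was 0.07. The result for *Rab4a* was known when the list was made, so its call says nothing about the list. *Slc2a4*, which encodes GLUT4, was at 625, 513 and 737 CPM in WT and 507, 584 and 674 CPM in F3-KO hearts (-0.09, adjusted p = 0.998). Genes of mitochondrial dynamics and mitophagy had a median of 0.01 over 23 genes. *Bnip3*, a mitophagy receptor, was at -0.85 (adjusted p = 0.879) and *Mfn2*, a fusion protein, at 0.09.

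Antioxidant enzymes had a median of -0.13, with 17 of 29 genes at a lower F3-KO mean and 12 at a higher one. Over all tested genes 49.2% had a higher F3-KO mean. In 8 of the 29 all F3-KO hearts lay below all WT hearts, as in 6.92% of all genes, and 0 were called. *Nnt* had both the smallest p and the highest CPM of the list. It encodes the transhydrogenase of the inner mitochondrial membrane that supplies NADPH, and as background it is known to differ between C57BL/6 substrains. It was at 1494, 1499.8 and 1765 CPM in WT and 650.2, 748 and 766 CPM in F3-KO hearts, 45.5% of the WT mean (log2 fold change -1.14 ± 0.28 SE, adjusted p = 0.277, edgeR). In DESeq2 its adjusted p was 0.00892. A part of the mice's origin in this value was not tested.

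Lists for stress responses and the clock had medians near 0. Heat shock genes had a median of -0.05 over 24 genes, and in 5 of them all F3-KO hearts lay below all WT hearts, as in 6.92% of all genes. *Hspb7*, a small heat shock protein of heart muscle, was at 4390.0, 4639 and 5744 CPM in WT and 3277, 3543 and 3191 CPM in F3-KO hearts (-0.56 ± 0.18 SE, adjusted p = 0.525, edgeR), and *Hspa1l* was at -0.73 (adjusted p = 0.273). Immediate early genes had a median of -0.08 over 22 genes, with *Fos* at 8.84, 11.4 and 21.4 CPM in WT and 4.32, 2.68 and 3.76 CPM in F3-KO hearts (-1.95 ± 0.53 SE, adjusted p = 0.348) and *Jund* at -0.01. The ATF4 stress response list (18 genes) had a median of 0.03, with *Aldh18a1* at -0.41 (adjusted p = 0.714). Circadian clock genes (19) had a median of -0.09, with *Nr1d1* at 176, 128 and 172 CPM in WT and 152, 49.6 and 44.7 CPM in F3-KO hearts (adjusted p = 0.761) and *Tef* at 0.23.

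Cell cycle genes (22) had a median of 0.27, which was 0.02 without WT sham replicate 2 and 0.53 without WT sham replicate 1. *Ccnd2*, cyclin D2, had both the smallest p and the highest CPM, at 135, 95.6 and 162 CPM in WT and 209, 232 and 164 CPM in F3-KO hearts (0.62 ± 0.29 SE, adjusted p = 0.848, edgeR). Angiogenic factors and receptors (20) had a median of 0.02. Within them *Angpt1*, the ligand that activates the endothelial receptor TIE2, was at 70.3, 39.4 and 53.3 CPM in WT and 26.4, 18.9 and 19.7 CPM in F3-KO hearts (-1.33 ± 0.26 SE, adjusted p = 0.0932). *Epas1*, with the highest CPM of the list, was within 0.01 of the WT level on the log2 scale.

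**Figure D4:**
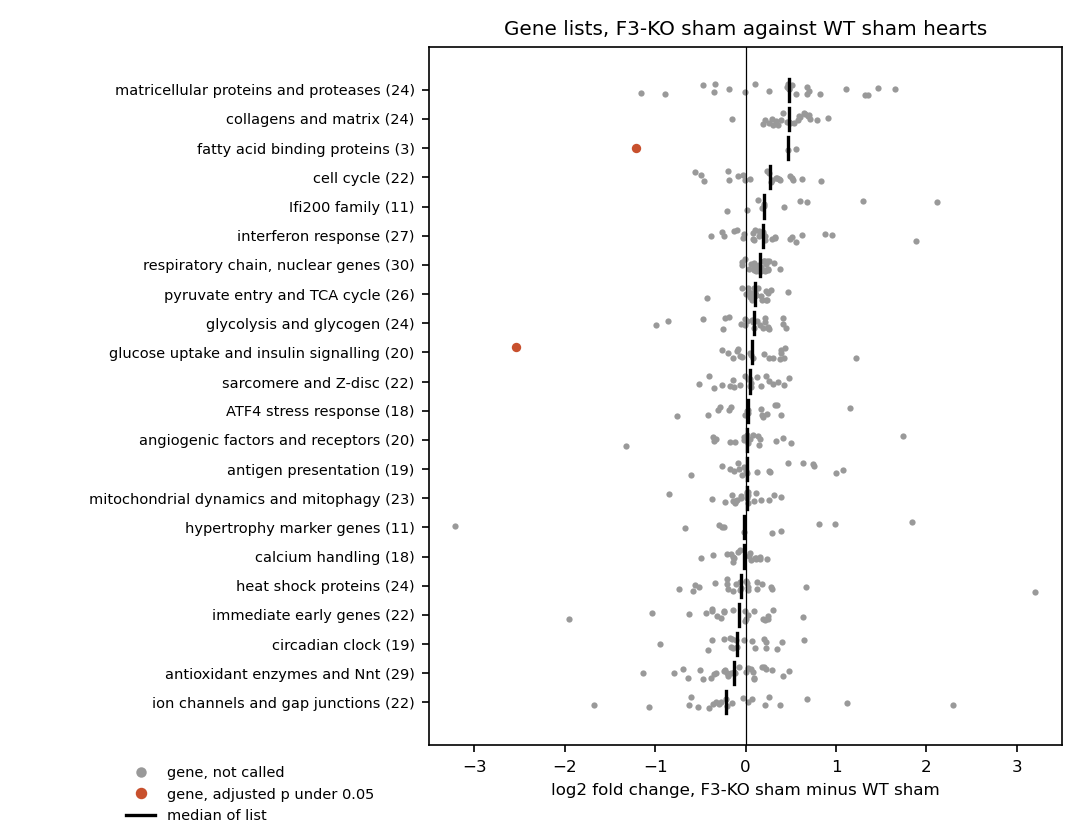
Log2 fold change between F3-KO sham and WT sham hearts of each tested gene (points) in 22 function lists, with the number of tested genes in parentheses and the list median as a black line. Orange points are the only differentially expressed members, *Fabp3* and *Rab4a*, and the list medians lie between -0.21 and 0.48.

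Of 16 marker lists, 15 had summed levels that overlapped between the sham groups. For 8 of these 15 the overlap came from WT sham replicate 2 alone. Without that heart the F3-KO sums lay above the WT sums for fibroblast, macrophage, endothelial, adipocyte, neutrophil, B cell, T cell and thymus, and hepatocyte markers. Only that heart was left out of the sums, and it was chosen after the data were seen. The lists come from the same hearts and are not independent, and groups separate more easily with fewer WT hearts. With all hearts the exception was skeletal muscle, at 1962 to 2327 CPM in WT and 2562 to 3089 CPM in F3-KO hearts, a sum that turned on *Ckm*, the muscle creatine kinase that heart also makes. *Ckm* was at 2336, 1878 and 2401 CPM in WT and 3138, 2553 and 3092 CPM in F3-KO hearts (log2 fold change 0.41, adjusted p = 0.883, edgeR), while the other 4 tested members of the list had lower F3-KO means. Single genes carry TMM factors and the sums do not, so that *Ckm* can stand above the sum of its list. Red blood cell markers were at 657 to 1745 CPM in WT and 1075 to 4520 CPM in F3-KO hearts, and F3-KO sham replicate 2 lay within the WT range. All 8 tested red blood cell markers had a higher F3-KO mean, with a median log2 fold change of 1.53 and 0 calls. With 1 heart left out that median ranged from 1.05 (without F3-KO sham replicate 3) to 1.94 (without F3-KO sham replicate 2). Macrophage markers were at 399 to 884 CPM in WT and 565 to 662 CPM in F3-KO hearts, and at 399 and 416 CPM in WT without WT sham replicate 2. The median log2 fold change of the 12 macrophage markers was 0.19, with 11 at a higher F3-KO mean. It was 0.59 without that heart but -0.017 without WT sham replicate 1. Endothelial (1516 to 2123 and 1965 to 2587 CPM), mural (768 to 1179 and 806 to 1007 CPM) and adipocyte markers (493 to 785 and 763 to 1063 CPM) also overlapped, the endothelial and adipocyte markers only through WT sham replicate 2. Atrial markers reached 92.7 to 260 CPM in WT and 209 to 366 CPM in F3-KO hearts, and the sex-linked genes 168 to 239 and 172 to 205 CPM. The 4 tested sex-linked genes had log2 fold changes between -0.40 and 0.24, with 0 calls. In 1 of them all F3-KO hearts lay below all WT hearts, as in 6.92% of all genes. Schwann cell (46.2 to 82.9 and 51.0 to 68.7 CPM), mesothelial (9.02 to 81.9 and 33.0 to 53.3 CPM), neutrophil (8.63 to 54.7 and 17.9 to 28.4 CPM), B cell (24.2 to 39.6 and 37.6 to 42.3 CPM), hepatocyte (3.56 to 8.69 and 7.52 to 15.8 CPM) and T cell and thymus markers (2.21 to 4.49 and 3.92 to 5.67 CPM) were low in all 6 hearts, and 1 adipocyte and 2 hepatocyte markers were at 0 in every one.

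The same 15 genes were then read in the TAC hearts, which did not enter the sham contrast although they share the model's estimate of spread. Among these 15 genes 12 had the same direction, and 7 were called at an adjusted p under 0.05, as were 11 of all 14094 genes (0.078%). In 11 of the 15 the genotypes did not overlap and differed in the sham direction. Over all genes 11.4% did not overlap after TAC, a share that counts both directions and is therefore not the matching one. The shares of all genes that kept their sham direction were not computed. *Rab4a* was at 15.2, 15.7 and 18.2 CPM in WT TAC and 2.35, 4.21 and 3.38 CPM in F3-KO TAC hearts, close to the sham values (log2 fold change -2.29, adjusted p = 0.00131, edgeR). *Plac9b* (1.69, adjusted p = 0.018), *Ttc41* (-2.15, 0.00146), *Tmem181b-ps* (-1.39, 0.00146), *Wdfy1* (-1.13, 0.00733), BGIG10090_47737 (-2.13, 0.0398) and *Fabp3* (-1.49, 0.00146) were the others called. *Dynlt1b* (-1.50, 0.0602), *Cpxm2* (1.84, 0.12), *Gm41885* (-4.79, 0.12) and *Upp1* (0.71, 0.374) did not overlap in the sham direction and were not called.

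The other 4 genes overlapped between the genotypes after TAC. *Rrad* was at 59.9, 76.8 and 103 CPM in WT TAC and 72.2, 124 and 84.2 CPM in F3-KO TAC hearts, so that the WT TAC hearts lay in the range of the F3-KO hearts of both surgeries. *Fam117b* was at 86.5, 45.6 and 59.8 CPM in WT TAC and 51.2, 56.3 and 55.8 CPM in F3-KO TAC hearts. *Ifi27* was at 32.5, 33.8 and 25.6 CPM in WT TAC and 46.6, 32.2 and 49.9 CPM in F3-KO TAC hearts. *Pax6os1* was at 7.53, 21.8 and 48.1 CPM in WT TAC and was counted in all F3-KO TAC hearts, at 52.6, 33.6 and 45.9 CPM, after 0 counts in every F3-KO sham heart.

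The test of the difference itself, the interaction of genotype and surgery in edgeR, called 0 of 14094 genes, with 632 at an unadjusted p under 0.05. The 4 genes above were the only ones of the 15 with an unadjusted interaction p under 0.05: *Pax6os1*, with an adjusted p of 0.652, and *Fam117b*, *Rrad* and *Ifi27*, each with an adjusted p of 0.954. The adjusted p of *Pax6os1* was the smallest of all genes. A difference between surgeries was therefore not shown for any gene. The genotype difference after TAC minus that after sham was -0.28 ± 0.21 SE on the log2 scale for *Fabp3* and 0.24 ± 0.28 SE for *Rab4a*.

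**Figure D5:**
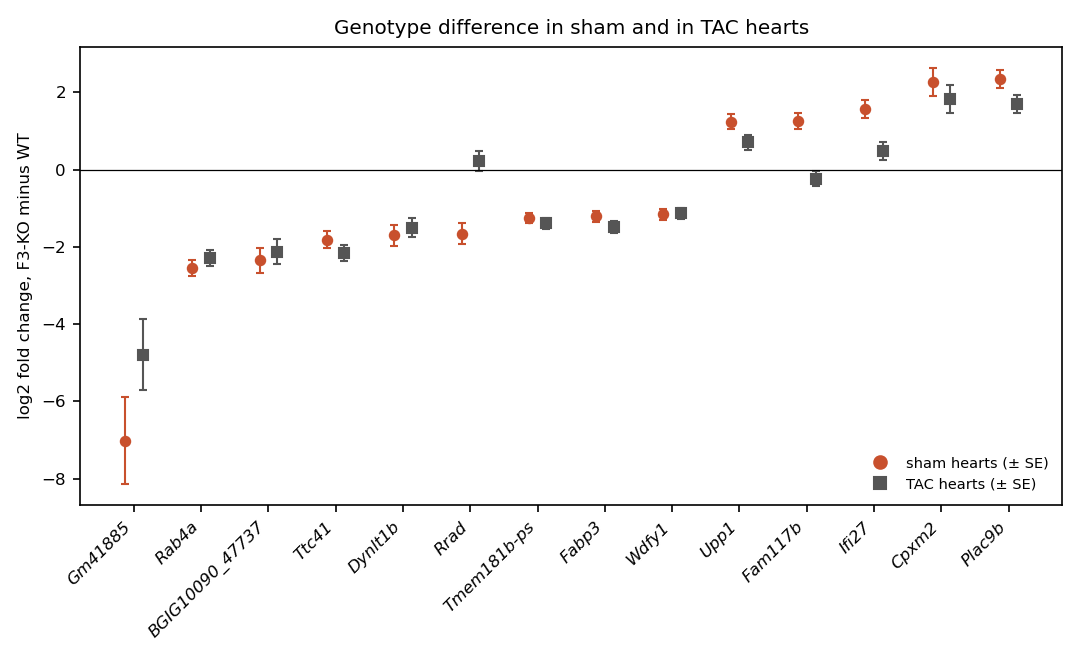
Log2 fold change (± SE) between F3-KO and WT hearts for 14 of the 15 genes called in sham hearts, with sham hearts as orange circles and TAC hearts as grey squares. *Pax6os1* is left out because its F3-KO sham hearts held 0 counts. Most pairs lie close together, while *Rrad* and *Fam117b* change sign after TAC and *Ifi27* moves from 1.57 to 0.48.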

How the data were processed

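Hearts of 12 mice (WT and F3-KO, sham and TAC, 3 per group) had been sequenced as bulk RNA. The authors deposited estimated counts per gene, not normalized; 39.9% of the values were not whole, and all were rounded to whole numbers here. Per the study's methods reads had been filtered with SOAPnuke, and the submitters' processing notes name HISAT2 2.0.4, STAR 2.3.0, DESeq2 and the builds mm8 and mm9. The counting tool, the annotation, the role of each build and strand-specific counting were not given in the sources used here. The joint table was read for all hearts: 11 per-heart tables equalled it and 1, that of WT sham replicate 2, broke off. All 12 columns were assigned from the labels, and 0 were left unused.

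Analysis used R 4.3.3. Genes passed edgeR's filterByExpr (minimum count 10), which left out 5214 genes holding 0.0647% of the counts of the sham hearts. Counts were scaled by TMM factors (0.953 to 1.04 in sham hearts). A model with the 4 groups was fitted to all 12 libraries with edgeR 4.0.16 and tested by its quasi-likelihood F-test (8 residual degrees of freedom), with Benjamini-Hochberg adjustment over all tested genes and a threshold of 0.05. Standard errors are the log2 fold change divided by the square root of F. Alternatives were DESeq2 1.42.0, limma 3.58.1 (limma-trend), other scalings, filters and thresholds, the sham libraries alone, a replicate block and each sham heart left out. The script was tested on simulated data. Separate hearts stood as replicates. Whether any was pooled from several mice was not given in the sources used here.

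Genes named were the target, those called, the next 10 by p, and in each function list the member with the smallest p and the one with the highest CPM. Any others were chosen after their values were seen, and 1 gene that the rule names is not reported here. The comparison, its gene lists and their members were chosen with earlier results of these data known (*Rab4a* among them), and the lists are described by counts and medians only. Names and gene order came from RefSeq's gene table and promoters from RefSeq (GRCm38.p6), of which 10762 tested genes had an entry; coordinates of the files' own build were not used here. Figures were drawn with matplotlib 3.10.9.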

Additional observations from a re-analysis of the deposited data

How the results depend on the processing

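The count of 15 genes moved with the method. It was 102 with DESeq2, 25 with limma-trend and 56 with only the 6 sham libraries, each including the 15, and 849 genes had an unadjusted p no higher than 0.05. It was 9 with library totals alone (8 of the 15), 20 without a filter on low counts, 13 with at least 10 counts in every library (12 of the 15), and 15 with DESeq2's size factors or with an added log2 fold change of at least 1. Leaving out 1 sham heart gave 2 to 7 genes. The causes were not tested. Among 62 named genes and 14 settings, 726 values kept direction and side of the threshold, 76 lost and 44 gained a call, 16 reversed and 6 could not be fitted. The reversals were in 8 uncalled genes. *Epas1* was at -0.030 with library totals, -0.00060 with only the sham libraries, and -0.12 to 0.11 with 1 heart left out. In the same fits *Atp2a2* ranged from -0.33 to 0.066, *Dcn* from -0.42 to 0.44, *Aldoa* from -0.14 to 0.052, *Slc2a4* from -0.21 to 0.049, *Jund* from -0.18 to 0.14, *Oasl2* from -0.74 to 0.38 and *Mfn2* from -0.064 to 0.29. Of 22 function lists, 10 had a median that changed sign in some setting. With all hearts these 10 medians were within 0.0997 of 0, but with 1 heart left out they reached -0.21 and 0.26 (hypertrophy markers). Values without WT sham replicate 2 for marker sums and for the bound of *Pax6os1* were added after seeing the data. Library totals moved the median of all genes to -0.03. Genes near 1 CPM rest on about 10 counts a heart.

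With the replicate number as a block, 8 genes were called, all among the 15. Deviations of same-numbered WT and F3-KO sham hearts from their group means correlated at -0.0603, 0.00102 and 0.0952 across genes. Only replicate 3 correlated best with its own number. With 3 hearts per group, such values cannot show whether same-numbered hearts were handled together.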

Other observations

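*Jchain*, the joining chain of secreted antibodies and thus a plasma cell gene, was at 0.291, 0.367 and 0.164 CPM in the WT sham hearts and at 10.9, 6.05 and 17.4 CPM in the F3-KO sham hearts. The difference did not pass the threshold (adjusted p = 0.0866, edgeR's quasi-likelihood test). In the F3-KO TAC hearts it was at 0.683, 9.25 and 1.24 CPM, so that only 1 of them lay in the F3-KO sham range. The gene was chosen after its values were seen.

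*Hcn2*, a pacemaker channel gene, was at 28.8, 15.6 and 28.1 CPM in WT and 42.5, 58.0 and 57.5 CPM in F3-KO sham hearts, with no overlap and an adjusted p of 0.260 in edgeR's quasi-likelihood test. *Acta1*, the skeletal form of actin that is also made by the fetal and the stressed heart, was at 156, 44.9 and 156 CPM in WT and 328, 753 and 197 CPM in F3-KO sham hearts (adjusted p = 0.614, edgeR). Its values did not overlap between the groups and varied widely within both. These genes were likewise chosen after their values were seen.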
